A study of Mus musculus with 2 samples.

Results

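Integrins and laminins are the receptors and the sheet-forming ligands through which cells hold on to a basement membrane. The genes described here are those of type mRNA in the deposited table whose symbols begin with Itga or Itgb, without the integrin-binding proteins whose names hold bp, or with Lama, Lamb or Lamc and a digit. That rule uses names and no measured value. Described here are 38 genes of 35529, of which 28 are integrin genes and 10 are laminin genes, and counts and medians are over these. One of the 28, Itgbl1, encodes an integrin beta-like protein and no integrin chain. The control pool came from normal colon of C57BL/6 wild-type mice that received neither azoxymethane (AOM) nor dextran sodium sulfate (DSS). The adenoma pool came from adenomas in the colon of C57BL/6 wild-type mice given both agents, AOM being a colon carcinogen and DSS an agent that injures the colonic lining. The sources used here give no doses, times or ages. The RNA of 6 individuals was combined for each group and each pool was sequenced as 1 library, so a difference between the pools has no replicate check and no test.

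Values are RPKM, reads scaled to the length of the gene and to the reads of the library. Levels of genes within 1 pool can be compared only roughly. The gene lengths the authors used are not known, and the difference between the pools moved with transcript length, as described below. About 29548883 reads lay behind the control values and 33174626 behind the adenoma values. The 95% intervals given beside fold changes are exact binomial (Clopper-Pearson) intervals on approximate read numbers and cover counting error only, not differences between animals, between pools or between library preparations. In bulk tissue, fewer cells of a type and less RNA per cell cannot be told apart.

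An integrin is a pair of 1 alpha and 1 beta chain, and the pair decides the ligand: laminin, collagen, fibronectin and other proteins with the RGD motif, or counter-receptors on other cells. A laminin is a trimer of 1 alpha, 1 beta and 1 gamma chain, secreted into the basement membrane, where it binds integrins as well as nidogen and other sheet components. In the intestine the epithelium rests on laminins and is fastened by the integrin alpha6beta4 in hemidesmosomes, while smooth muscle, vessels and leukocytes carry integrins of their own.

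Most of these genes were lower in the adenoma pool. Of all 38, 28 were lower and 10 were higher, 5 of which turned lower when both pools were rescaled to equal sums. Among the 30 that reached 1 RPKM in one of the pools 5 were higher and 25 lower, where 41.9% of all mRNA genes past that filter were higher. The summed level of the integrin alpha chains, 18 genes, was 117 RPKM in control colon and 55.2 RPKM in adenomas, 2.13-fold lower. The 9 beta chains summed to 131 and 104 RPKM, 1.26-fold lower. Among the laminins, Lama3, an alpha chain of epithelium, was 1.98-fold higher in the adenoma pool, and Lamb3, an epithelial beta chain, was 1.13-fold higher as deposited and lower at equal sums. The other 8 laminin chains described here summed to 54.5 and 26.7 RPKM, 2.04-fold lower.

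**Figure D1:**
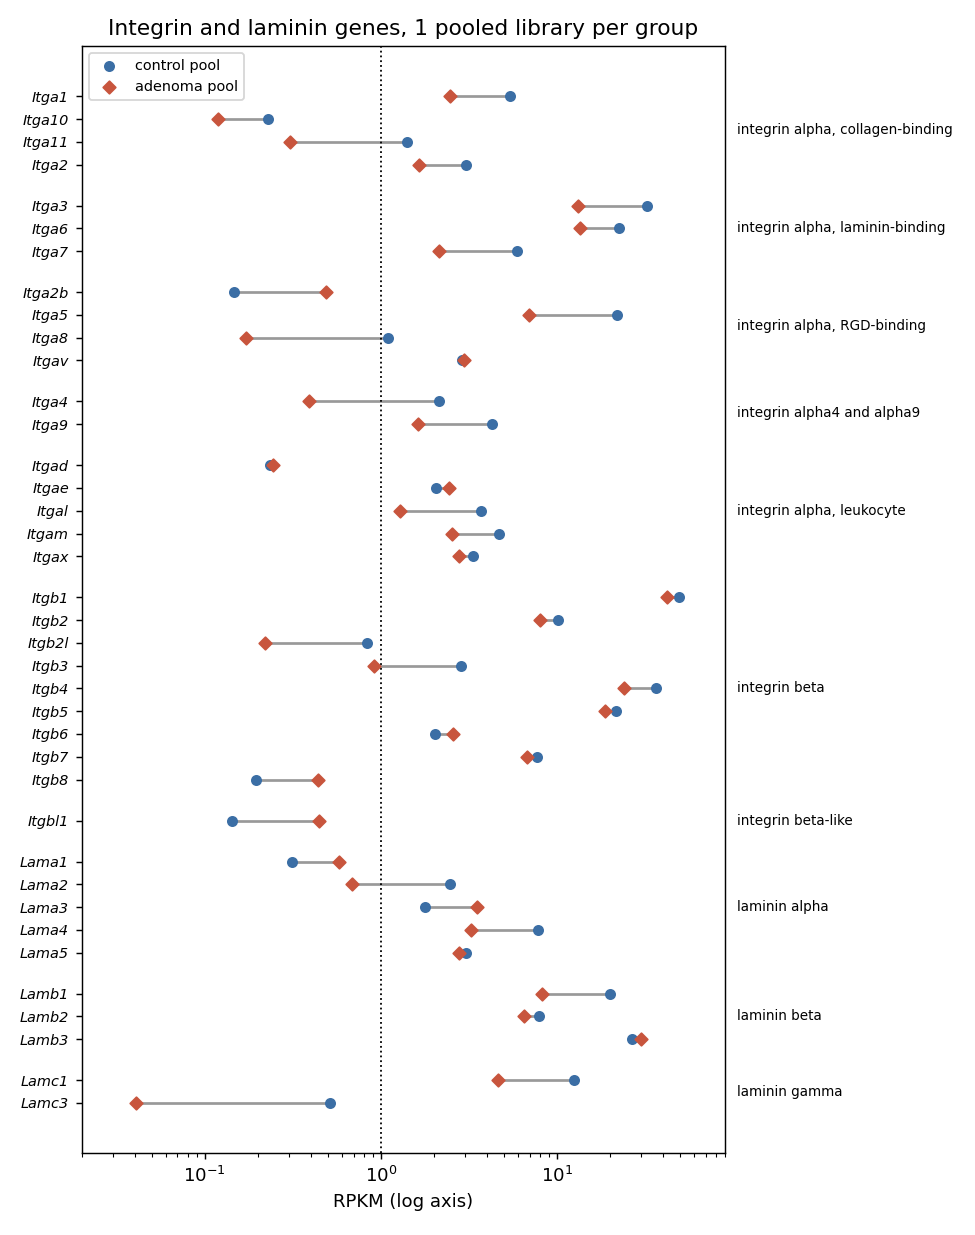
Level of each of the 38 genes in RPKM on a log axis, with the control pool as circles and the adenoma pool as diamonds, 1 library each, grouped by chain type; the dotted line marks 1 RPKM. Diamonds lie left of circles for 28 genes, and Lama3 and Lamb3 are among the 10 with the diamond to the right, of which 5, Lamb3 included, turn lower at equal sums.

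Differences were counted on a log2 scale with 1 RPKM added to both values before their ratio, adenoma over control, was formed, a step that makes the difference of low genes look smaller. Only genes that reached 1 RPKM in one pool or the other entered, which left 22 integrin and 8 laminin genes. Of the 22 integrins 0 were higher by 2-fold or more and 6 were lower by 2-fold or more on this scale, namely Itga3, Itga4, Itga5, Itga7, Itgal and Itgb3. Of the 8 laminins 0 were higher by 2-fold or more and 4 were lower by 2-fold or more, namely Lama2, Lama4, Lamb1 and Lamc1. Over all 12910 mRNA genes past the filter 10.4% were higher by 2-fold or more and 13.1% lower by 2-fold or more. The median log2 fold change was -0.69 for the 22 integrins and -0.65 for these 8 laminins, against -0.17 for all mRNA genes. Itga4, Itga8, Itga11, Itgb3 and Lama2 passed the filter through the control pool alone, so their direction was fixed by it. The 8 genes under 1 RPKM in both pools were Itga2b, Itga10, Itgad, Itgb2l, Itgb8, Itgbl1, Lama1 and Lamc3. Itga9, at a log2 value of -0.999, lay just short of 2-fold, and Itgb3, at -1.001, just past it.

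These counts depended on the scale. With both pools rescaled to equal sums the mRNA median shifted by -0.31 and 721 mRNA genes were higher by 2-fold or more and 2961 lower. Of the genes past 2-fold in either direction 19.6% were then higher. With scaling by the median ratio the mRNA median shifted by 0.14, with 1715 higher and 1284 lower (57.2% of those past 2-fold higher). As deposited the counts were 1346 and 1693 (44.3% of those past 2-fold higher). The integrin median was negative under each of these scalings, -0.96 at equal sums and -0.55 by the median ratio, as was the laminin median, -0.89 and -0.51.

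Transcript length moved with the difference between the pools across all mRNA genes, and the members are long. The longest annotated transcripts of the 38 genes ranged from 2683 to 11388 bases. In 20 bins of mRNA genes by length, the median log2 fold change went from 0.86 in the shortest bin to -0.78 in the longest, which begins at 7898 bases. Most members are therefore also given after the running median over length was subtracted and the mRNA median added back. After that step 0 integrins were higher by 2-fold or more and 1, Itga5, was lower by 2-fold or more, while 1 laminin, Lama3, was higher by 2-fold or more and 0 lower. Over all 12719 mRNA genes with a length, 6.15% were higher by 2-fold or more and 10.4% lower by 2-fold or more after it. The integrin median became -0.35 and the laminin median -0.13, against -0.17 for all mRNA genes. The length step was run on values already shrunk by the added 1 RPKM, and not on plain ratios. Itga4, for example, was 5.48-fold lower by plain ratio and entered at a log2 value of -1.18. The fall from 6 integrins to 1 thus rests on the added 1 RPKM as well as on length. Beyond 9391.5 bases, the median length of the longest bin, the subtracted value was held constant. What part length has in the difference of any 1 gene was not tested.

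**Figure D2:**
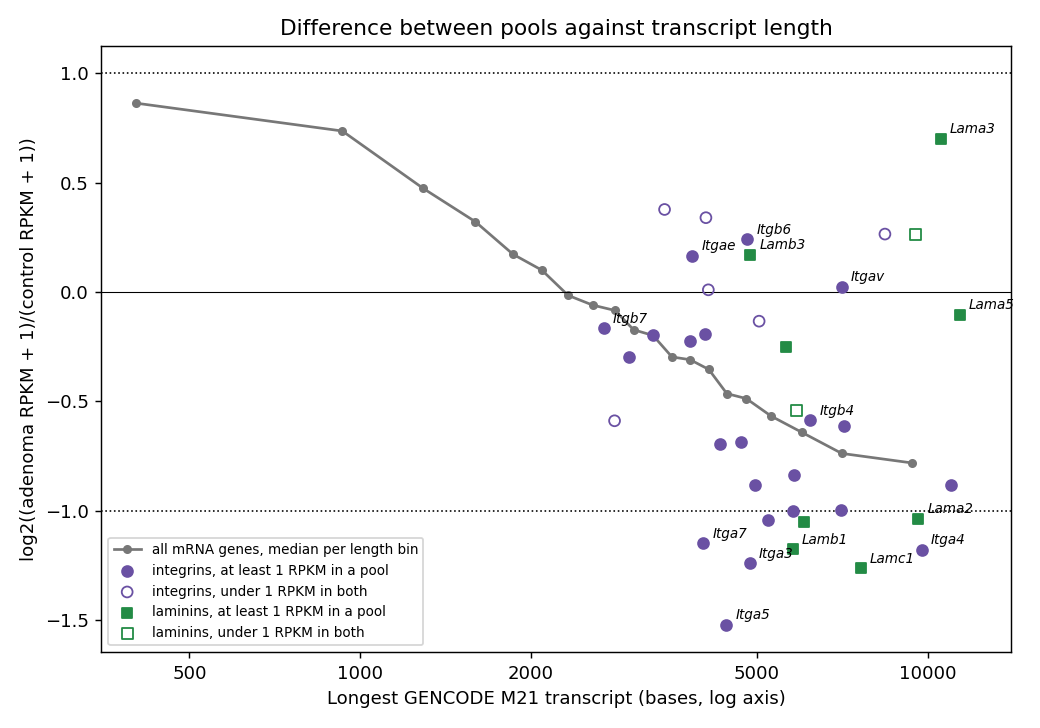
Log2 fold change, log2((adenoma RPKM + 1)/(control RPKM + 1)), against the longest annotated transcript in bases on a log axis, with the median of all mRNA genes in 20 length bins as a grey line, integrins as circles and laminins as squares; open symbols lie under 1 RPKM in both pools and dotted lines mark 2-fold. The grey line goes from 0.86 to -0.78, with Lama3 far above it and Itga5 far below.

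The laminin alpha chains carry the integrin-binding end of the trimer, and they differed in direction. Lama3, the alpha chain of the laminin that anchors epithelium, was at 1.78 RPKM in control colon and 3.52 RPKM in adenomas, 1.98-fold higher (1.79 to 2.19). Its log2 value was 0.70, and 1.31 after length adjustment. Of mRNA genes in the same length bin 96.4% had a lower log2 value than Lama3. Lama4, found in vessel and muscle basement membranes, was at 7.84 and 3.26 RPKM, 2.40-fold lower (2.19 to 2.64). Lama2, the alpha chain of muscle and nerve basement membranes, was at 2.47 and 0.689 RPKM, 3.58-fold lower (3.07 to 4.18). After length adjustment Lama4 stood at -0.58 and Lama2 at -0.43, so both were still lower.

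The remaining alpha chains were close together or low. Lama5, the widespread alpha chain of mature epithelial and vessel basement membranes, was at 3.05 and 2.77 RPKM, 1.10-fold lower (1.01 to 1.20), a difference that turned positive by the median ratio (log2 value of 0.03), by the trimmed mean (0.03) and after length adjustment (0.51). Lama1, the alpha chain of early embryonic basement membranes, was at 0.313 and 0.576 RPKM, which is about 88 reads against 182. The order of the alpha chains in the control pool was Lama4, Lama5, Lama2, Lama3 and Lama1. In the adenoma pool it was Lama3, Lama4, Lama5, Lama2 and Lama1. Lama4 held 50.7% of the summed alpha chain RPKM in control colon and 30.2% in adenomas, and Lama3 held 11.5% and 32.5%.

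Of the beta chains, Lamb3, which joins Lama3 in the anchoring laminin of epithelium, was the most abundant of the 10 laminin genes in both pools. It was at 26.7 RPKM in control colon and 30.2 RPKM in adenomas, 1.13-fold higher (1.08 to 1.18). Its log2 value of 0.17 became -0.21 at equal sums and 0.50 after length adjustment, so its direction depended on the scale. Lamb1, the beta chain of most other trimers, was at 19.9 and 8.26 RPKM, 2.41-fold lower (2.27 to 2.56), and its log2 value stayed below 0 after length adjustment, at -0.73. Lamb2, the beta chain of muscle, nerve and kidney basement membranes, was at 7.90 and 6.47 RPKM, 1.22-fold lower (1.13 to 1.32), and turned to 0.18 after length adjustment. Lamb3 held 49.0% of the summed beta chain RPKM in control colon and 67.2% in adenomas.

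Lamc1, the gamma chain of most laminins, was at 12.5 RPKM in control colon and 4.63 RPKM in adenomas, 2.70-fold lower (2.53 to 2.90). Its log2 value was -1.26, the most negative of the 8 laminins past the filter, and -0.69 after length adjustment. It exceeded 16.2% of the mRNA genes in its length bin. GENCODE M21 places the gene on the minus strand of chromosome 1 of GRCm38, from 153218922 to 153332786. Lamc3, a gamma chain known from nerve and retina, was low in both pools, at 0.514 and 0.0407 RPKM, about 89 reads against 8.

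**Figure D3:**
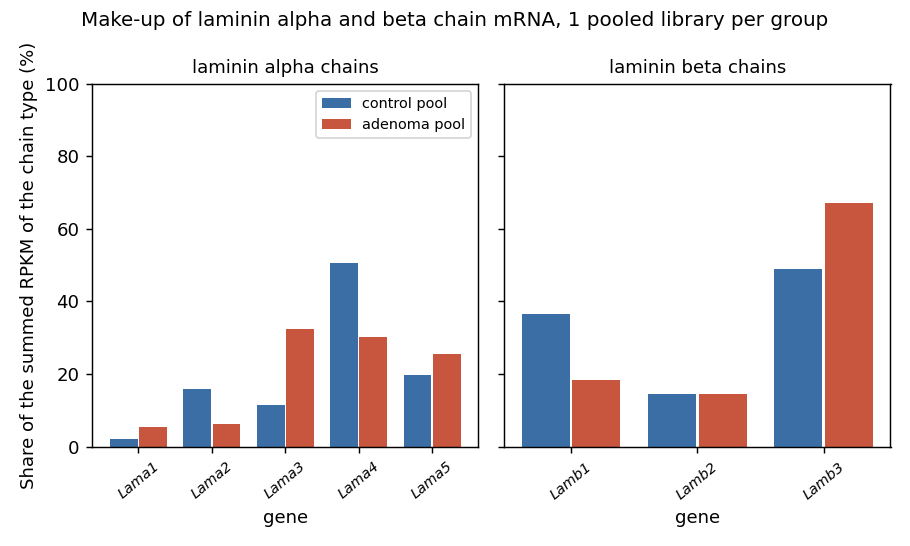
Share of each laminin alpha and beta gene in the summed RPKM of its chain type, in percent, for the control pool (blue) and the adenoma pool (red), 1 library each, with no error bars. Lamb3 goes from 49.0% to 67.2% of the beta chains and Lama3 from 11.5% to 32.5% of the alpha chains.

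Ratios between chains of 1 pool do not depend on how the pools are scaled to each other. There were 13 such ratios computed, each with the gene that was higher relative to its partner in the adenoma pool on top, so that their direction is fixed by that choice. Lama3 stood at 0.227 of Lama4 in control colon and at 1.08 times it in adenomas, a change of 4.75-fold (4.14 to 5.47 by exact conditional intervals on the reads), or 5.22-fold after length adjustment. Lamb3 against Lamb1 went from 1.34 to 3.65, a change of 2.73-fold (2.53 to 2.94). Among alpha and among beta chains the epithelial gene thus held a larger part of the mRNA in the adenoma pool. Lama3 and Lama5 have transcripts of like length, 10548 and 11388 bases, and their ratio went from 0.582 to 1.27, a change of 2.18-fold (1.91 to 2.49). The length step subtracts the same value from both genes, so it leaves this change as it was and is no check of it.

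**Figure D4:**
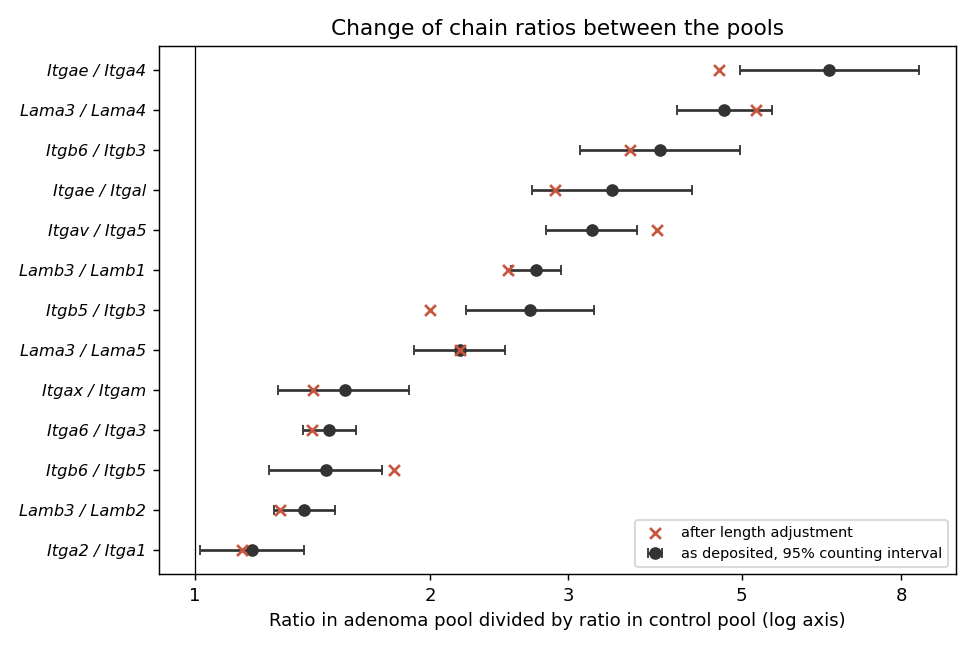
Change of 13 ratios between chains, given as the ratio in the adenoma pool divided by that in the control pool on a log axis; circles with bars are the values as deposited with 95% counting intervals and crosses are values after length adjustment. The change of Itgae against Itga4 is 6.47-fold and that of Itga2 against Itga1 is 1.18-fold; all lie right of 1 because of how each ratio was written.

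Promoters could be read for 25 of the 38 genes in the RefSeq table of GRCm38.p6, as 28 windows of 250 bases before a transcription start. Shown are those of the beta chains Lamb3 and Lamb1, which went in opposite directions as deposited though not at equal sums, where both were lower, and those of Itga5 and Itgb6, at the lower and upper ends of the log2 values of integrins past the filter. They are written 5′ to 3′ on the strand of the gene, with GC boxes (GGGCGG or its reverse complement) in capitals. The windows are chr1:193301744-193301993 on the plus strand for Lamb3 (the upstream one of its 2 windows), chr12:31265043-31265292 on the plus strand for Lamb1, chr15:103366792-103367041 on the minus strand for Itga5 and chr2:60722604-60722853 on the minus strand for Itgb6 (also the upstream one of 2).
Lamb3: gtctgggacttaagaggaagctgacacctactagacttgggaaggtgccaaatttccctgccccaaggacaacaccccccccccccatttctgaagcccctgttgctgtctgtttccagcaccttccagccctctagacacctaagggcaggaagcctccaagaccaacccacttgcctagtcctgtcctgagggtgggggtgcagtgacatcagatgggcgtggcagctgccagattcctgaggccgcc
Lamb1: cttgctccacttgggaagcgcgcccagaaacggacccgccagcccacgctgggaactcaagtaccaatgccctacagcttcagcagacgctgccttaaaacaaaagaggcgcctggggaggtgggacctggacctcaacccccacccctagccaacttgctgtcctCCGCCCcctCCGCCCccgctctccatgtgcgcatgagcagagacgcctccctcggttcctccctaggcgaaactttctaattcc
Itga5: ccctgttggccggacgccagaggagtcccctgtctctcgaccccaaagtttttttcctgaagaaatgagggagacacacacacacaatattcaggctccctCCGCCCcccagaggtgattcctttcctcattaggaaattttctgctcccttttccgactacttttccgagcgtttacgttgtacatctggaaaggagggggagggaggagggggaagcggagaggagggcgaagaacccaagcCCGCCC
Itgb6: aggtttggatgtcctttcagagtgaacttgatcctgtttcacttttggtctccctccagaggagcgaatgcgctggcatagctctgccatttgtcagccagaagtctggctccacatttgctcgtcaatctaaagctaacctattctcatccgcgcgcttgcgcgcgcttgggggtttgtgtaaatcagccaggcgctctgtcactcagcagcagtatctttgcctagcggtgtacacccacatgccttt

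The promoters of Lamb1 and Itga5 each held 2 GC boxes, and those of Lamb3 and Itgb6 held 0. A GC box was found in 10 of the 28 member windows (35.7%) and in 32.7% of all 32851 windows of the same length. A TATA box, searched as TATAAA on both strands, was in 0 of the 28 member windows and in 12.4% of all windows. An AP-1 site, searched as TGANTCA on both strands, was in 1 of the 28, that of Itgax, and in 6.75% of all windows. None of the 3 motifs can share bases with another. The Lamb3 window held 2 CpG dinucleotides, and those of Lamb1, Itga5 and Itgb6 held 14, 11 and 11. The other window of Lamb3 held 3 and that of Itgb6 held 3, so the Itgb6 value depends on the start chosen. These matches describe letters in a window and say nothing of which factor binds there.

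Among the laminin-binding integrin chains all 3 were lower in the adenoma pool. Itga3, which with beta1 binds the epithelial anchoring laminin, was the most abundant alpha chain in the control pool at 32.5 RPKM and stood at 13.2 RPKM in the adenoma pool, 2.47-fold lower (2.34 to 2.60). Itga6, which pairs with beta4 in hemidesmosomes and with beta1 elsewhere, was at 22.4 and 13.5 RPKM, 1.66-fold lower (1.57 to 1.76). Itga7, the laminin receptor of muscle, was at 5.96 and 2.14 RPKM, 2.79-fold lower (2.43 to 3.21). Length-adjusted log2 values were -0.91, -0.44 and -0.98, so the direction of the 3 genes was the same. Itga6 relative to Itga3 went from 0.691 to 1.03, and the order of the pair differed between the pools.

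Itgb4, the beta partner of alpha6 and the core of the hemidesmosome, was at 36.3 RPKM in control colon and 23.9 RPKM in adenomas, 1.52-fold lower (1.47 to 1.58). Its log2 value of -0.59 was near the median of mRNA genes in its length bin, -0.64, and became -0.10 after length adjustment. Thus the receptor chains Itga3, Itga6 and Itgb4 were lower in the same pool in which Lama3, a chain of their ligand, was higher.

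The collagen-binding alpha chains were lower as well. Itga1, carried by smooth muscle, fibroblasts and some T cells, was at 5.41 and 2.47 RPKM, 2.19-fold lower (2.02 to 2.38). Itga2, the collagen receptor of epithelium and platelets, was at 3.06 and 1.65 RPKM, 1.85-fold lower (1.63 to 2.11). The 2 genes lie close together on the minus strand of chromosome 13, Itga2 from 114833081 to 114932100 and Itga1 from 114953096 to 115101964, and their ratio changed by 1.18-fold (1.01 to 1.38). Itga11, a fibroblast collagen receptor, was at 1.41 and 0.305 RPKM, about 206 reads against 50. Itga10, known from cartilage, was at 0.228 and 0.120 RPKM, about 34 reads against 20. Its log2 value of -0.13, shrunk by the added 1 RPKM, became 0.22 after length adjustment. That adjustment was fitted on genes past the filter, which Itga10 is not, so the changed sign says nothing of its direction. On the log2 scale Itga1, Itga2 and Itga11 were at -0.89, -0.61 and -0.88, and at -0.28, -0.05 and -0.54 after length adjustment.

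Itga5, the alpha chain of the main fibronectin receptor, showed the most negative log2 fold change of the 30 genes past the filter. It was at 21.8 RPKM in control colon and 6.94 RPKM in adenomas, 3.14-fold lower (2.92 to 3.38). Its log2 value of -1.52 was under those of all but 4.25% of the mRNA genes in its length bin, and it stood at -1.23 after length adjustment. The gene lies on the minus strand of chromosome 15 from 103344286 to 103366763. Itgav, the alpha chain shared by the receptors for vitronectin, osteopontin and latent TGF-beta, was at 2.89 and 2.95 RPKM, 1.02-fold higher (0.915 to 1.14), with log2 values of -0.26 at equal sums and 0.59 after length adjustment. Itgav relative to Itga5 went from 0.132 to 0.425, a change of 3.22-fold (2.81 to 3.67).

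The other RGD-binding alpha chains were low. Itga8, the nephronectin receptor chain of smooth muscle and mesenchyme, was at 1.10 and 0.172 RPKM, 6.38-fold lower (4.40 to 9.56). Itga2b, the alpha chain of the platelet fibrinogen receptor, was at 0.148 and 0.491 RPKM, about 15 reads against 56. Its partner in platelets, Itgb3, which also pairs with alphaV, went the other way, at 2.84 and 0.918 RPKM, 3.09-fold lower (2.60 to 3.70). The 5 platelet markers, which include Itga2b, summed to 31.6 and 40.6 RPKM. After length adjustment Itgb3 stood at -0.55 and Itga8 at -0.39, both still below 0. Of the platelet markers, Pf4 was at 31.0 and 38.2 RPKM, and Gp9 was at 0.125 RPKM in control colon and listed at 0 in adenomas.

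AlphaV pairs with beta1 and with Itgb3, Itgb5, Itgb6 and Itgb8. Of the latter 4 Itgb5 was the most abundant in both pools, at 21.7 and 18.8 RPKM, 1.16-fold lower (1.09 to 1.23), and its log2 values were -0.20 as deposited and -0.17 after length adjustment. Itgb6, the epithelial chain of the receptor that activates TGF-beta, was at 2.03 and 2.58 RPKM, 1.27-fold higher (1.09 to 1.48), with a log2 value of 0.24 that became -0.03 at equal sums and 0.56 after length adjustment. Itgb8, another TGF-beta activating chain, was at 0.197 and 0.438 RPKM, about 49 reads against 122. Itgb6 relative to Itgb3 went from 0.714 to 2.81, a change of 3.93-fold (3.11 to 4.98), so that the pair exchanged places. Itgbl1, the secreted beta-like protein, was at 0.144 and 0.448 RPKM.

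Itgb1, the common partner of most matrix-binding alpha chains, was the most abundant of all 38 genes in both pools. It stood at 49.3 RPKM in control colon and 42.0 RPKM in adenomas, 1.17-fold lower (1.13 to 1.22), and its log2 value was -0.09 after length adjustment. The 9 alpha chains that pair with beta1 alone summed to 75.7 RPKM and 28.6 RPKM, 2.65-fold lower. For each unit of Itgb1 the sum of these alpha chains was 1.53 in control colon and 0.680 in adenomas. Alpha chain mRNA was therefore lower in relation to its common partner, a comparison that does not rest on the scaling of the pools. It was not adjusted for length, and the Itgb1 transcript (3815 bases) is shorter than those of the 9 alpha chains (4020 to 10967 bases). Over all alpha and all beta chains past the filter the median log2 values were -0.88 and -0.23. After length adjustment they were -0.44 and -0.17.

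Itga4 and Itga9, related chains that bind VCAM-1 and osteopontin, were both lower. Itga4, the alpha chain of the gut-homing receptor of lymphocytes, was at 2.15 RPKM in control colon and 0.393 RPKM in adenomas, 5.48-fold lower (4.53 to 6.70). Exons of the opposite-strand gene Cerkl share 8.04% of the exon bases of Itga4, and the sources used here do not say whether counting used strand. Itga9, known from smooth muscle and lymphatic vessels, was at 4.26 and 1.63 RPKM, 2.61-fold lower (2.31 to 2.95). After length adjustment the log2 values were -0.57 for Itga4 and -0.44 for Itga9.

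Itgb7, the beta partner of alpha4 in gut homing and of alphaE in intraepithelial lymphocytes, was at 7.73 and 6.78 RPKM, 1.14-fold lower (1.02 to 1.28). Itgae, which encodes alphaE and binds E-cadherin, was at 2.06 and 2.43 RPKM, 1.18-fold higher (0.993 to 1.40), with log2 values of -0.10 at equal sums and 0.31 after length adjustment. In the control pool Itgae and Itga4 were at nearly the same level, with a ratio of 0.955, and in the adenoma pool Itgae was at 6.18 times Itga4, a change of 6.47-fold (4.98 to 8.44) or 4.68-fold after length adjustment. The 2 alpha partners of beta7 thus differed from each other between the pools. Cdh1, the E-cadherin that alphaE binds, was at 137 and 44.9 RPKM.

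The beta2 integrins of leukocytes were lower or nearly level. Itgb2, their common beta chain, was at 10.1 RPKM in control colon and 8.03 RPKM in adenomas, 1.26-fold lower (1.14 to 1.39). Itgal, the alpha chain of LFA-1 on lymphocytes, was at 3.70 and 1.28 RPKM, 2.89-fold lower (2.47 to 3.39). Itgam, the alpha chain of Mac-1 on neutrophils and macrophages, was at 4.69 and 2.53 RPKM, 1.85-fold lower (1.63 to 2.10). Annotated exons of the model Gm49368 on the same strand share 68.7% of the exon bases of Itgam, so its value is uncertain, as is that of Itga10, which shares 33.5% with Gm42957 in the same way. Itgax, the CD11c chain of dendritic cells and macrophages, was at 3.33 and 2.80 RPKM, 1.19-fold lower (1.03 to 1.38).

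The remaining leukocyte genes were low. Itgad was at 0.235 and 0.243 RPKM, about 28 reads against 33, with an interval of 0.615 to 1.80 around a ratio of 1.04, and it turned lower at equal sums. Itgb2l, a relative of Itgb2 known from neutrophil precursors, was at 0.834 and 0.219 RPKM, about 69 reads against 20. Length-adjusted log2 values were -0.32 for Itgb2, -0.66 for Itgal, -0.38 for Itgam and -0.02 for Itgax. Itgal, Itgam, Itgax and Itgad all lie on the plus strand of chromosome 7 between 127296260 and 128223816.

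Summed markers of leukocytes, those of dendritic cells aside, were higher in the adenoma pool, though single genes differed in direction. The 4 pan-leukocyte markers summed to 79.2 RPKM in control colon and 111.7 RPKM in adenomas, with Ptprc, the CD45 gene, at 5.95 and 3.70 RPKM and Coro1a at 46.2 and 80.1 RPKM. The 5 neutrophil markers summed to 2.35 and 306 RPKM, of which S100a8 and S100a9 made up nearly everything, while the receptor Csf3r was at about 40 reads against 110 and Cxcr2 at 0.0389 and 0.0307 RPKM. The 6 monocyte and macrophage markers summed to 284 and 448 RPKM, with Csf1r at 18.1 and 11.4 RPKM, and the 6 T cell markers summed to 13.2 and 21.7 RPKM. The 5 dendritic cell markers were each under 1 RPKM in both pools and summed to 2.32 and 2.05 RPKM. The 5 mast cell markers summed to 8.15 and 97.8 RPKM and the 5 B and plasma cell markers to 486 and 1053 RPKM. After length adjustment the median log2 value of the markers past the filter was 0.12 for the pan-leukocyte, 5.09 for the neutrophil, 2.26 for the mast cell and 0.002 for the B and plasma cell list. It was -0.10 for T cells and -0.20 for monocytes and macrophages, with 5 of the latter 6 below 0, so the direction of these lists depended on the length step. All 3 neutrophil markers past the filter, 2 of the 5 mast cell markers and 1 T cell marker passed through the adenoma pool alone. The filter thus fixed their direction as deposited. The part of cell mix or of transcript length in the leukocyte integrin values was not tested.

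Most markers of muscle and vessels were lower beside the muscle and vessel members. The 8 smooth muscle markers summed to 2168 RPKM in control colon and 1787 RPKM in adenomas, 7 of them lower, with Myh11 at 178 and 61.0 RPKM and Tagln at 558 and 597 RPKM. The 6 endothelial markers summed to 41.6 and 25.5 RPKM, all lower, with Pecam1 at 16.6 and 8.70 RPKM. The intervals of 4 of the 6 left out 1. Emcn (1.05-fold lower, 0.932 to 1.18) and Esam (1.02-fold lower, 0.885 to 1.17) were nearly level. The 8 epithelial markers summed to 9626 and 6288 RPKM, 7 of them lower, from Cldn7 at 1.03-fold and Epcam at 1.16-fold to Krt20 at 2.23-fold and Cdh1 at 3.05-fold. After length adjustment all 8 epithelial markers were below 0 and 5 of them lower by 2-fold or more, against 10.4% of all mRNA genes. Their median log2 value was -1.08, beside length-adjusted values of 1.31 for Lama3 and 0.50 for Lamb3. All 8 smooth muscle markers and 5 of the 6 endothelial ones were also below 0 after length adjustment. The 6 fibroblast markers summed to 359 and 434 RPKM, with Col3a1 at 112 and 95.9 RPKM and Dcn at 145 RPKM in control colon and 1.72-fold higher in adenomas. The 6 glial and neuronal markers summed to 12.4 and 9.69 RPKM. The part of these cell types in the values of Lama3, Lamb3, Itga7, Itga8, Itga9, Lama2 and Lama4 was not tested.

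**Figure D5:**
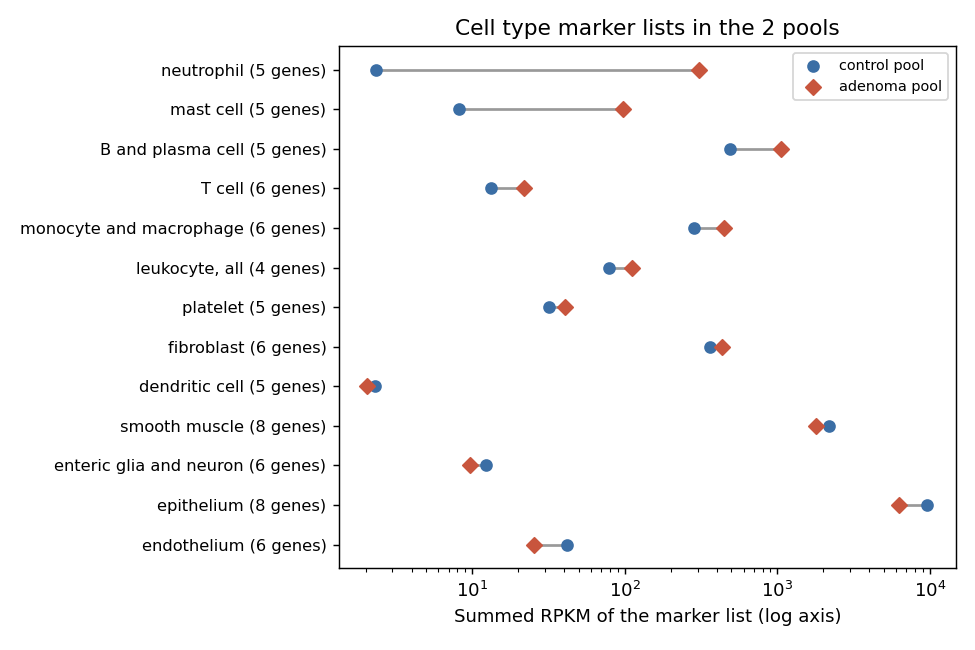
Summed RPKM of each cell type marker list on a log axis, with the control pool as circles and the adenoma pool as diamonds, 1 library each. Endothelial, epithelial and smooth muscle markers lie lower in the adenoma pool, and neutrophil markers go from 2.35 to 306 RPKM.

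Other genes of the adhesion pathway were read from lists of known partners. Of 16 other basement membrane genes 11 were past the filter, 0 of them higher by 2-fold or more and 5 lower, and the median log2 value was -0.96, or -0.50 after length adjustment. Of the 11, Col4a5, Col4a6 and Ntn4, named after their values were seen, passed through the control pool alone, which fixed their direction, and the first 2 are among the 5 lower ones. Col4a1, the most abundant of them and a chain of the collagen IV network, was at 32.1 and 27.3 RPKM, a log2 value of -0.23 that turned to 0.30 after length adjustment. Hspg2, which encodes perlecan, was the lowest, at 9.44 and 2.80 RPKM, 3.37-fold lower (3.16 to 3.59), and Col18a1, the source of endostatin, was the highest, at 9.87 and 14.4 RPKM. The background shares for these counts are the 10.4% and 13.1% of mRNA genes given above. After length adjustment 0 of the 11 were higher by 2-fold or more and 1 lower, against 6.15% and 10.4% of mRNA genes.

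Of 6 genes for hemidesmosome plaque proteins and non-integrin laminin receptors, 5 were past the filter, 0 higher by 2-fold or more and 3 lower. The median log2 value was -1.76, or -1.15 after length adjustment. After that step 0 were higher by 2-fold or more and 3 lower. Over all mRNA genes the shares were 10.4% higher and 13.1% lower as deposited, and 6.15% and 10.4% after the length step. Dst, a plakin that links alpha6beta4 to keratin, was at 6.68 and 1.12 RPKM, 5.95-fold lower (5.54 to 6.41). The others past 2-fold, named after their values were seen, were the plakin Plec, at 20.9 and 5.47 RPKM, and dystroglycan, Dag1, at 46.0 and 12.6 RPKM. Dst and Plec have transcripts of 23279 and 15455 bases, beyond the 9391.5 bases from which the length correction is constant. Any trend past that length is not taken out of their values. Cd151, a tetraspanin that binds laminin-binding integrins, was the most abundant and the highest, at 82.9 and 121.7 RPKM. Col17a1, the collagen of the hemidesmosome and the 1 gene left out, was under the filter at 0.0249 and 0.372 RPKM.

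Of 20 genes for other integrin ligands 16 were past the filter, 1 higher by 2-fold or more and 6 lower. The median log2 value was -0.56, or -0.29 after length adjustment. After that step 2, Spp1 and Npnt, were higher by 2-fold or more and 3 lower. Over all mRNA genes the shares were 10.4% higher and 13.1% lower as deposited, and 6.15% and 10.4% after the length step. The 1 higher gene as deposited was Spp1, the osteopontin that alphaV, alpha4 and alpha9 integrins bind, at 0.379 and 19.5 RPKM. It passed the filter through the adenoma pool alone, as did Npnt, so that the direction of both was fixed by it. Cdh1, which also stands among the epithelial markers, was the lowest and the most abundant of them. Fibronectin, Fn1, the ligand of the Itga5 receptor, was at 63.7 and 34.3 RPKM, 1.86-fold lower (1.81 to 1.91), and is named after its values were seen, as the ligand of that receptor. Fibrinogen chains Fga, Fgb and Fgg were listed at 0 in both pools.

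Of 26 genes for integrin activation and focal adhesions 25 were past the filter, 0 higher by 2-fold or more and 7 lower. The median log2 value was -0.64, or -0.49 after length adjustment. After that step 0 were higher by 2-fold or more and 5 lower. Over all mRNA genes the shares were 10.4% higher and 13.1% lower as deposited, and 6.15% and 10.4% after the length step. Actn4, an actin cross-linker, was the most abundant at 225 and 107 RPKM, 2.11-fold lower (2.07 to 2.15). Tns1, tensin 1, which links integrin tails to actin, was the lowest at 21.4 and 5.83 RPKM, 3.66-fold lower (3.48 to 3.86). Itgb1bp1, which binds the beta1 tail and limits integrin activation, was the highest at 6.36 and 13.7 RPKM, 2.16-fold higher (1.90 to 2.44), with a log2 value of 0.999, just under the threshold. As deposited 4 of the 25 had a log2 value above 0, against 41.9% of all mRNA genes, and after length adjustment 3 did, against 39.2%. Of the 25, 1 passed the filter through the control pool alone.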

How the data were processed

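The authors deposited 1 table of RPKM values with 1 column per pooled library, per the file headers. The submitters' processing notes name the build GRCh37, a human assembly, though the symbols are those of mouse; the aligner, the counter and the annotation are not given in the sources used here. Labels name Proton sequencing in one place and an Illumina library protocol in another. The rule found 39 genes, of which 1 laminin is not reported here, so the laminin counts and medians are not those of the whole family. Members and lists were chosen with earlier results of these data known.

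Read totals came from short RNA genes (microRNA, snoRNA) with a RefSeq length. With these totals 128 of 181 such genes of the control pool (70.7%) and 143 of 199 of the adenoma pool (71.9%) had whole reads to within 0.01. Reads per gene used the longest GENCODE M21 transcript, found for all 38 genes, and are approximate since the authors' lengths can differ. The pseudocount was 1 RPKM, the filter 1 RPKM in either pool and the threshold 2-fold. Length adjustment used 20 bins of mRNA genes. With 1 library per group no test was made and no p-value is given. Every member could be named; of other lists, the most abundant, highest and lowest gene; others in the text were chosen after their values were seen. Of 144 list symbols, 2 were found through synonyms and 0 were missing. Steps were tested on simulated data. Python 3.11.15, NumPy 2.4.6, pandas 2.3.3 and SciPy 1.17.1 were used. Alternatives were pseudocounts, filters, thresholds, scalings and length; adjustment by the union of exons was added after the data were seen.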

Additional observations from a re-analysis of the deposited data

How the results depend on the processing

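Both medians were below 0 in every setting run, but the length step adds the mRNA median of -0.17 back. After that step the laminin median lay above this mRNA median, with 4 laminins above 0 and 4 below. The integrin median of -0.69 became -0.32 with a pseudocount of 5, -0.96 at equal sums, -0.35 after length adjustment and -0.44 with the union of exons as the length. The laminin median of -0.65 became -0.28 with a pseudocount of 5, -0.40 with no filter, -1.05 with a filter at 5 RPKM, -0.89 at equal sums, -0.51 by the median ratio, -0.51 by the trimmed mean, -0.13 after length adjustment and -0.23 with the union of exons. The 6 integrins lower by 2-fold or more became 10 with a pseudocount of 0.1, 2 with a pseudocount of 5, 3 with a filter at 5 RPKM (10 genes left), 9 at equal sums, 4 by the median ratio, the trimmed mean and the upper quartile (Itgal and Itgb3 then fell short), 1 after length adjustment, 2 with the union of exons, 14 at 1.5-fold and 0 at 4-fold. The 4 laminins lower by 2-fold or more became 0 with a pseudocount of 5, 2 by the median ratio, 2 by the trimmed mean, 2 by the upper quartile, 0 after length adjustment, 0 with the union of exons and 0 at 4-fold. The 0 laminins higher by 2-fold or more became 1 after length adjustment, 1 with the union of exons and 1 at 1.5-fold. The cause was not tested. Of the 38 genes, 5 changed sign at equal sums (Itgad, Itgae, Itgav, Itgb6 and Lamb3) and 3 after length adjustment (Itga10, Lama5 and Lamb2), none of them past 2-fold as deposited. Itga10 was under the filter, and its value had been shrunk by the added 1 RPKM before the length step. By plain ratios without a pseudocount, 11 of 28 integrins and 5 of 10 laminins were 2-fold lower, and 3 and 0 were 2-fold higher. Of all 12910 mRNA genes past the filter, 2961 were 2-fold lower at equal sums and 1284 by the median ratio. By the trimmed mean 1284 were, and by the upper quartile 1405. No share of all mRNA genes is given here for plain ratios, other pseudocounts, filters or thresholds, or the union of exons. Those counts therefore have no background beside them. No paired analysis was possible because each group holds 1 library, and leaving a library out was not possible for the same reason. Low read numbers limit Itga10, Itga2b, Itgad, Itgb2l, Itgbl1 and Lamc3 most.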
